A study of Mus musculus with 6 samples.

Results

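The genes described here are the SOX factors Sox7 and Sox18, the ETS factors Etv2, Erg and Ets1, the factors Klf2 and Mef2c, and Egfl7, which hosts Mir126a, the gene of miR-126. They were taken by symbol from the annotation of a Mouse Gene 1.0 ST array, and each of the 8 genes had 1 probe set there, among 19938 single symbols. Total RNA came from mouse yolk sacs collected at embryonic day 9.5. The mutant group was 3 embryos homozygous for a gene-trap allele of Tnrc6a, labelled GW182gt/gt, and the wild-type group was 3 littermates. Each yolk sac was dissected from an individual embryo. The labels give no strain, do not give the position of the trap in Tnrc6a, and add the word mixed to both genotypes without explaining it.

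Endothelial cells of the yolk sac arise beside primitive blood cells in the blood islands and then remodel into branched vessels. ETS factors bind the enhancers of nearly every endothelial gene, SOXF factors act with them in arterial and lymphatic fate, and Mef2c and Klf2 lie on the pathway by which endothelium responds to blood flow. Tnrc6a encodes GW182, which joins Argonaute to the machinery that silences and degrades microRNA targets. Egfl7 is a protein secreted by endothelium that guides the forming vessel tube. An intron of Egfl7 carries the microRNA that represses Spred1 and Pik3r2, both brakes on VEGF signalling, so the locus joins an endothelial gene to the process that Tnrc6a serves.

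The hairpin of this microRNA and its 3p mature strand are shown because the microRNA is a regulatory product of the Egfl7 locus. In the hairpin, at chr2:26591357-26591429 on the plus strand of GRCm38.p6, capitals mark the 3p strand. It is the only mature strand that the source used here listed for Mir126a, and a strand from the other arm is not shown. In the 3p strand capitals mark the seed, bases 2 to 8. Sequences are those of RefSeq.
Mir126a hairpin: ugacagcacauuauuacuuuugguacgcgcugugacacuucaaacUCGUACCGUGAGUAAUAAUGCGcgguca
mmu-miR-126a-3p: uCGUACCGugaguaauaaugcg

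Promoter windows of 250 bases before a gene start were searched for 1 set of letters each for the ETS, SOX and MEF2 families. RefSeq's table for GRCm38.p6 gave 11 such windows for 5 of the 8 genes, Egfl7, Erg, Etv2, Klf2 and Mef2c. Both strands were searched for CNGGAAGT (the ETS letters), ACAANG (the SOX letters) and CTANNNNTAG (the MEF2 letters), where N is any base. These are chosen spellings, and the shares below hold for these letters only. Each window shown held matches of 1 motif only, so none overlap. The ETS letters were found in 1 of the 11 windows, against 7.58% of 32851 windows of all genes. The MEF2 letters were found in 1 of 11, against 3.2%, and the SOX letters in 4 of 11, against 36.3%. With 11 windows, these counts show nothing particular to the 5 genes. A match describes the letters and not a bound site. The windows below were picked from those with a match, and capitals mark the matches. The Egfl7 window is chr2:26583615-26583864 on the plus strand, with the ETS letters 81 to 74 bases before the start. The Klf2 window is chr8:72318812-72319061 on the plus strand, with the MEF2 letters 118 to 109 bases before the start. The Erg window is chr16:95459349-95459598 on the minus strand, with the SOX letters read on the opposite strand 121 to 116 bases before the start.
Egfl7: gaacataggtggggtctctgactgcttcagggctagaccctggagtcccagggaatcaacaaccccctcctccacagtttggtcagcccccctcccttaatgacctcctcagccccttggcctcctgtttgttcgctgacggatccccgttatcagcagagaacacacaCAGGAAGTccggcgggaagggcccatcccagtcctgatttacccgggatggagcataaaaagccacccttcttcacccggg
Klf2: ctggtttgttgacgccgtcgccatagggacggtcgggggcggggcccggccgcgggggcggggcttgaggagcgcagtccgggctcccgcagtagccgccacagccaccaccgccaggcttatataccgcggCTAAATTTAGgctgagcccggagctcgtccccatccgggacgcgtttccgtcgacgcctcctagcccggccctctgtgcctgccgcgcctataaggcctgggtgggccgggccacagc
Erg: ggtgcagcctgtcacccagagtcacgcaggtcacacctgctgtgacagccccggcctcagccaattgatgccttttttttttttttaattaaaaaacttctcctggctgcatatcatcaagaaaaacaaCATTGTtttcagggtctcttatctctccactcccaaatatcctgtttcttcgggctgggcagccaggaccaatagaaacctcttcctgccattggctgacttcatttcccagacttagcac

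The deposited log2 signals had medians of 5.19 to 5.22 on the 6 arrays, and precision is limited by having 3 arrays per genotype. Some libraries stood apart. Tnrc6a read 7.81, 5.33 and 5.20 in mutants 1 to 3, against 8.40, 7.62 and 8.29 in wild types 1 to 3, so mutant 1 goes against its label and is called the library labelled mutant 1. Wild type 2 lay 1.32 above the wild-type mean in 8 markers of trophoblast, decidua and parietal endoderm. Mutant 2 lay 0.81 below it in 10 primitive erythroid markers, and these were lower in the other mutants too, as given beside the results. Mutant 3 lay 0.43 above it in 22 endothelial markers. Every direction for the mutants below includes the library labelled mutant 1 unless stated.

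Erg had the largest genotype difference of the 8 genes, a mean 1.30-fold higher in the mutants, and with Mef2c it was 1 of 2 whose genotypes did not overlap. Positive differences were also measured for Ets1 (0.29 on the log2 scale), Sox18 (0.20), Mef2c (0.19), Egfl7 (0.18), Klf2 (0.077) and Etv2 (0.074), and Sox7 alone had a negative one (-0.16). None of the 8 passed limma's test at an adjusted p of 0.05 (adjusted p = 0.999 for each), where 0% of 16387 tested probe sets passed. At an unadjusted p under 0.05 there was 1 of the 8, Erg, against 3.53% of all tested probe sets, and the methods' t-test, a two-sample test, gave 0 of 8, against 3.83%. The differences had a median of 0.18, beside 0.0063 over all tested probe sets, and the median of the 8 genes was 0.24 without the library labelled mutant 1 and 0.083 without mutant 3. Of the 8 genes 7 had a positive difference, against 52.4% of all tested probe sets, and 2 had mutants entirely above wild types, against 5.17%. Markers of another cell type lay on the other side. The 10 tested primitive erythroid markers, of 11 on the array with Tspo2 below the filter, had a positive difference for 0 of 10, against 52.4% of all tested probe sets. Their median was -0.35. Mutant 2 lay far below the other arrays, and no median was taken without it. Their mean relative to wild type was -0.086, -0.81 and -0.14 in mutants 1 to 3, against 0.014, -0.067 and 0.053 in wild types 1 to 3. Their summed linear signal was 18468 to 24741 in the mutants and 26031 to 26596 in wild type, and 0 of the 10 passed limma's adjusted test. The part of the erythroid share in the values of the 8 genes was not tested. In bulk tissue, more endothelial cells and more RNA of a gene per endothelial cell cannot be told apart. The p-values measure the spread among these yolk sacs.

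**Figure D1:**
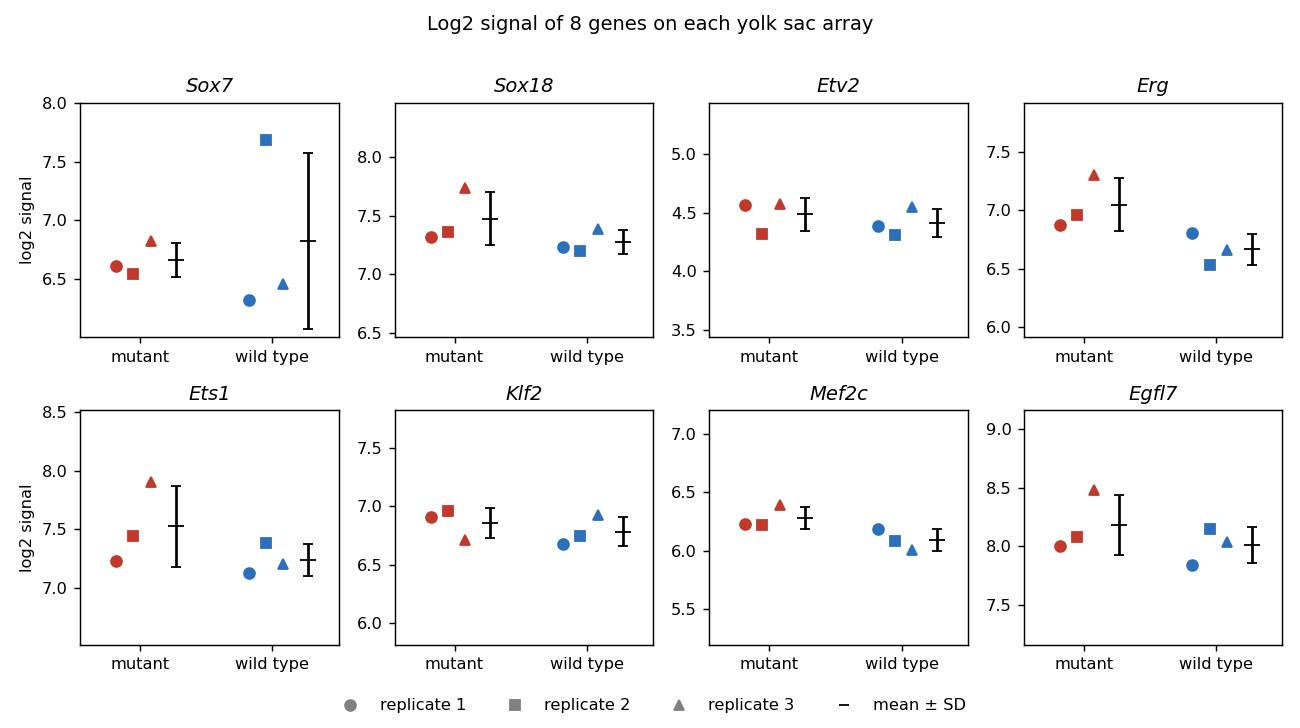
Log2 signal (vertical axis, each panel spanning 2 log2 units) of the 8 genes on each array, mutants in red at the left and wild types in blue at the right, with the mean and SD in black. Mutant 3 (red triangle) is the highest array for 6 of the 8 genes, and wild type 2 (blue square) stands far above the others for Sox7.

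Of the ETS factors, Erg, which maintains endothelial identity and junctions, read 6.88, 6.96 and 7.30 in mutants 1 to 3, against 6.80, 6.53 and 6.66 in wild types 1 to 3. All 3 mutants lay above all wild types, with a gap of 0.075 between the lowest mutant and the highest wild type. The log2 difference was 0.38 (SE 0.13, 95% interval 0.076 to 0.69), with an unadjusted limma p of 0.0210, an adjusted p = 0.999 and an exact two-sided permutation p = 0.1, the smallest that 3 against 3 arrays allow. Without mutant 3, the highest, the difference was 0.25. It ran up to 0.47, without the library labelled mutant 1, and the unadjusted p was above 0.05 without wild type 2 (0.0691) or wild type 3 (0.0525).

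Ets1, an ETS factor of angiogenic sprouting and matrix proteases, read 7.22, 7.44 and 7.91 in mutants 1 to 3, against 7.12, 7.38 and 7.20 in wild types 1 to 3. The genotypes overlapped, since the library labelled mutant 1 read below wild type 2, and mutant 3 lay 0.67 above the wild-type mean. The log2 difference was 0.29 (SE 0.17, 95% interval -0.12 to 0.69), and it was 0.096 without mutant 3 and 0.44 without the library labelled mutant 1.

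Etv2, the ETS factor that starts the endothelial and blood programmes in the early embryo and is then shut off, was dim. It read 4.57, 4.32 and 4.57 in mutants 1 to 3 and 4.39, 4.31 and 4.55 in wild types 1 to 3, close to the limit of 4.29 under which probe sets were not tested. Its genotypes overlapped and the difference was 0.074 (SE 0.11, 95% interval -0.17 to 0.32), and 0.021 to 0.16 with 1 array left out.

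Of the SOXF genes, Sox18, which opens the lymphatic programme, read 7.32, 7.37 and 7.73 in mutants 1 to 3, against 7.24, 7.20 and 7.39 in wild types 1 to 3. Wild type 3 lay above the library labelled mutant 1 and mutant 2, so the genotypes overlapped. The difference was 0.20 (SE 0.13, 95% interval -0.094 to 0.49), and without mutant 3 it was 0.070.

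Sox7 read 6.61, 6.54 and 6.82 in mutants 1 to 3, against 6.32, 7.69 and 6.46 in wild types 1 to 3. Wild type 2 stood 2.21-fold above the median of the other 5 arrays, while every mutant lay above wild types 1 and 3. The difference over all arrays was -0.16 (SE 0.33, 95% interval -0.94 to 0.61), and without wild type 2 it turned to 0.27 (limma adjusted p = 0.975). Sox7 is known in parietal endoderm as well as in endothelium. Lama1, a basement membrane gene that parietal endoderm expresses strongly, read 7.77 to 8.42 in the mutants, against 7.74, 10.69 and 7.69 in wild types 1 to 3. The trophoblast, decidua and parietal endoderm list kept 8 of its 14 measured markers above the filter, and its summed linear signal was 2144 to 3092 in the mutants and 2075 to 6435 in wild type. The part of such tissue in the Sox7 value was not tested.

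Mef2c and Klf2 are the flow-related factors. Mef2c, a MADS-box factor needed for vascular remodelling in the mouse, read 6.22, 6.22 and 6.39 in mutants 1 to 3, against 6.19, 6.09 and 6.0 in wild types 1 to 3. The genotypes did not overlap, but the gap was 0.036. The difference was 0.19 (SE 0.090, 95% interval -0.023 to 0.40), with an unadjusted limma p of 0.0737, an adjusted p = 0.999 and an exact permutation p = 0.1.

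Klf2, a zinc finger factor induced by flow that steadies vessels and also acts on embryonic globin genes in the mouse, read 6.91, 6.96 and 6.72 in mutants 1 to 3 and 6.68, 6.75 and 6.92 in wild types 1 to 3. It was the single gene of the 8 with its lowest mutant value in mutant 3 while 6 others peaked there. The difference was 0.077 (SE 0.10, 95% interval -0.16 to 0.32), and 0.026 to 0.15 with 1 array left out.

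Egfl7 read 8.0, 8.08 and 8.48 in mutants 1 to 3, against 7.84, 8.15 and 8.03 in wild types 1 to 3. Only mutant 3 exceeded the wild types, by 0.47 over their mean, and the library labelled mutant 1 and mutant 2 lay within the wild-type range. The difference was 0.18 (SE 0.14, 95% interval -0.16 to 0.51), and 0.031 without mutant 3. The array also has a probe set for Mir126a, whose hairpin is shown above. It read 2.27, 2.43 and 2.42 in mutants 1 to 3 and 2.18, 2.32 and 2.27 in wild types 1 to 3, below the limit of 4.29, and was not tested. A probe set for the precursor does not measure the mature microRNA.

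**Figure D2:**
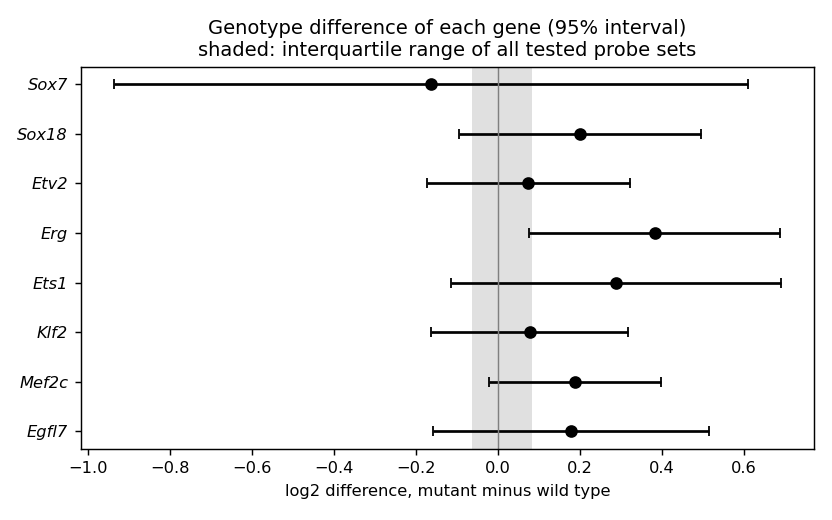
Log2 difference, mutant minus wild type (horizontal axis), of each of the 8 genes, with points for the estimate and bars for the 95% interval from limma. The shaded band, from -0.064 to 0.083, spans the interquartile range of all tested probe sets. Only the interval of Erg lies above 0, and that of Sox7 is the widest, at -0.94 to 0.61.

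Mutant 3 was the highest array for 6 of the 8 genes, all but Sox7 and Klf2, where 25.6% of all tested probe sets had their highest value in mutant 3. The mean of the 8 genes relative to wild type was 0.055, 0.075 and 0.33 in mutants 1 to 3, against -0.089, 0.099 and -0.0094 in wild types 1 to 3. Endothelial markers were likewise highest in mutant 3 and lowest in wild type 1, while mutant 2 and wild type 2 changed places. The mean of these markers was 0.032, 0.16 and 0.43 in mutants 1 to 3, against -0.093, 0.12 and -0.025 in wild types 1 to 3. All 22 were on the array and above the filter, 20 had a positive difference, against 52.4% of all tested probe sets, and 0 passed the adjusted test, while 4 had an unadjusted limma p under 0.05, against 3.53%. Their summed linear signal was 4124 to 5331 in the mutants and 3771 to 4294 in wild type, so RNA of endothelial genes was measured in every yolk sac. The list includes Sox17 and Fli1, a SOX and an ETS gene, but none of the 8. Its 2 negative differences were those of Tal1 (-0.13) and Lyl1 (-0.011). Tal1 is also in the list of blood progenitors, and Sox17 in that of visceral endoderm. The part of these other cells in the endothelial mean was not tested. Mutant 3 was also the highest array for markers of blood progenitors (0.37) and of the embryo proper (0.27). The 14 progenitor markers, all tested, summed to 1730 to 2442 in the mutants and 1896 to 2058 in wild type. Of 15 embryo markers on the array 11 were tested, with Sox2, Pax6, Neurog2 and Meox1 below the filter, and the sum was 564 to 1429 in the mutants and 527 to 1189.6 in wild type. Actc1, an actin of heart and skeletal muscle, read 7.03, 7.04 and 9.92 in mutants 1 to 3, against 6.50, 9.55 and 7.16 in wild types 1 to 3. Without Actc1, left out after its values were seen, the embryo mean was 0.045, 0.016 and 0.083 in mutants 1 to 3, against 0.025, -0.0089 and -0.016 in wild types 1 to 3. The part of both tissues in these values was not tested.

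**Figure D3:**
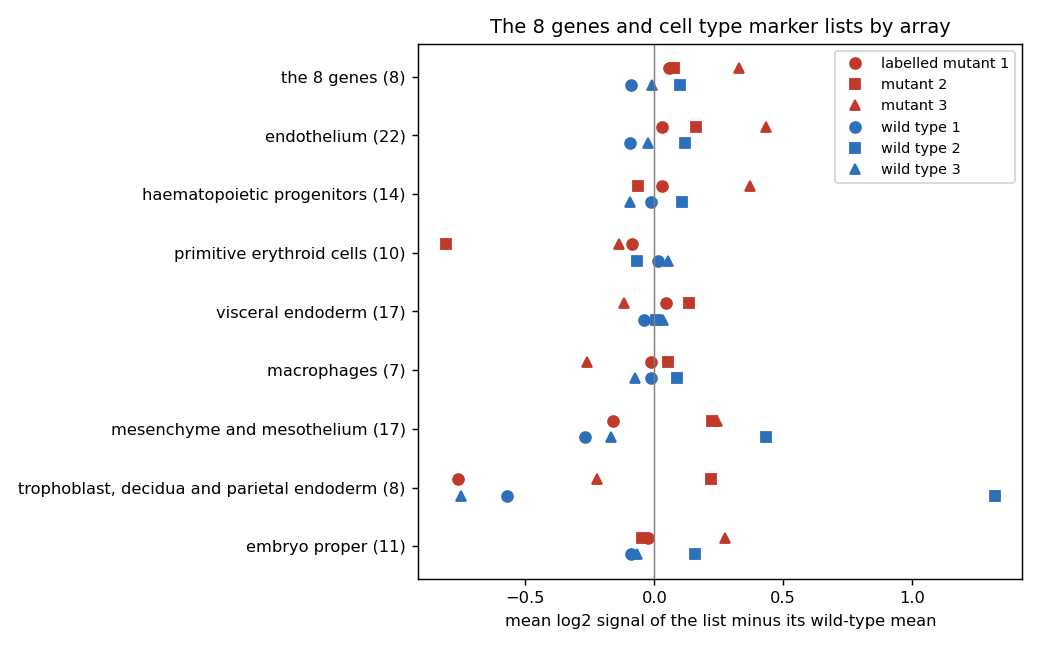
Mean log2 signal of the 8 genes and of marker lists on each array, minus the wild-type mean of the list (horizontal axis), with the number of genes tested in brackets. Mutants are red and above, wild types blue and below. Mutant 3 is highest for the 8 genes (0.33) and endothelium (0.43), mutant 2 is lowest for primitive erythroid cells (-0.81), and wild type 2 is highest for trophoblast, decidua and parietal endoderm (1.32).

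Each gene was then set against the endothelial markers of its own array, as its log2 signal minus the mean of the 22 markers, with the wild-type mean at 0. On this scale Erg stood at 0.18, 0.13 and 0.20 in mutants 1 to 3, against 0.23, -0.25 and 0.022 in wild types 1 to 3. The non-overlap of Erg was thus gone, with wild type 1 above every mutant, and the mean difference was 0.17 (exact two-sided permutation p = 0.4). Mef2c overlapped as well, at a mean difference of -0.022 (exact permutation p = 0.9). Over all 6 arrays together Egfl7 had the narrowest range, from -0.093 to 0.035 in the mutants and from -0.071 to 0.051 in wild type. Klf2 was lowest in mutant 3, at -0.50, and Sox7 highest in wild type 2, at 0.75. The exact two-sided permutation p was 0.4 or higher for each of the 8 (0.933 or higher adjusted over them), and since 0.1 is the smallest that 3 against 3 arrays allow, no gene could have passed 0.05 on this scale. A level relative to the markers shows unequal change only.

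**Figure D4:**
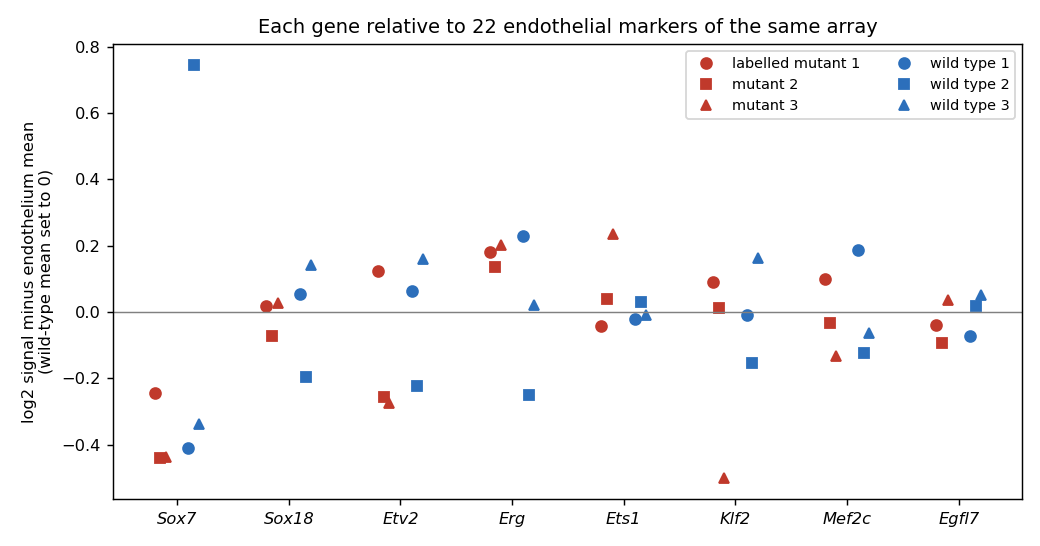
Log2 signal of each gene minus the mean of 22 endothelial markers on the same array, with the wild-type mean set to 0 (vertical axis). Mutants are red and at the left of each pair, wild types blue and at the right. The genotypes overlap for all 8 genes. Sox7 in wild type 2 (0.75) and Klf2 in mutant 3 (-0.50) lie farthest from 0.

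Across the 6 arrays, Ets1 had the highest correlation with the endothelial mean among the 8 genes. A correlation ignores the size of a change. Relative to the markers, Ets1 stood at -0.043, 0.041 and 0.24 in mutants 1 to 3. In wild types 1 to 3 it stood at -0.020, 0.029 and -0.0094. The Pearson r of Ets1 was 0.993 (permutation p = 0.00139, the smallest that 720 orders allow, adjusted p = 0.0111 over 8 relations). Its Spearman rho was 1 (permutation p = 0.00278, adjusted p = 0.0222). Without mutant 3 and wild type 1, the arrays farthest from the median of the endothelial mean, r was 0.98001. Egfl7 had r = 0.963 (permutation p = 0.00694, adjusted p = 0.0278) and rho = 0.886 (permutation p = 0.0333, adjusted p = 0.133), and r was 0.6597 without the same arrays, so its relation rests on them. For the other 6 genes the adjusted permutation p for r was 0.178 or higher. Their r was 0.812 for Sox18, 0.736 for Erg, 0.721 for Mef2c, 0.341 for Sox7, 0.190 for Etv2 and -0.170 for Klf2. Without mutant 3 and wild type 1, r was -0.386 for Sox18, 0.254 for Erg and 0.540 for Mef2c. It was then 0.399 for Sox7, -0.910 for Etv2 and -0.177 for Klf2. All these values share their arrays, and 3 arrays a genotype are too few for an r in each genotype. With each genotype's mean subtracted and the arrays pooled, r was 0.993 for Ets1 and 0.973 for Egfl7, given as a description.

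The genes whose pattern over the 6 arrays was most like each of 7 of the 8, Etv2 not being ranked, were found by Pearson r among tested probe sets with 1 symbol whose SD over the arrays was at or above the median (7715 candidates, 7716 for Klf2), as a description without a test. With 6 arrays and so many candidates, an r this high can arise between unrelated genes. Ets1 was closest to Hmcn1 (r = 0.991), Adm (0.990), which encodes the vasoactive peptide adrenomedullin, and Cldn5 (0.990), an endothelial tight-junction protein. Egfl7 was closest to Fam124b (0.997), Bok (0.996) and Coro2b (0.996), and Erg to Stau2 (0.984), Psma8 (0.983) and Rftn1 (0.982). Sox18 was closest to Pfn4 (0.988), Arl11 (0.981) and Sh2d3c (0.977). Sox7 was closest to Ccn1 (0.992), a matricellular protein, Selenom (0.992) and Adamts9 (0.990), a matrix protease. Mef2c was closest to 6720489N17Rik (0.990), Prex2 (0.985) and Plxnd1 (0.982), a semaphorin receptor of vessels, and Klf2 to Gm10840 (0.987), Tead4 (0.983) and Magix (0.981).

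Among the other ETS genes, 17 of 18 tested had a positive difference, against 52.4% of all tested probe sets. Their median was 0.12, beside 0.0063 over all tested probe sets. None passed limma's adjusted test, and 3 had an unadjusted p under 0.05, all higher in the mutants, against 2.25% of all tested probe sets on that side. Elk3, a vascular ETS factor, read 7.45, 7.59 and 7.78 in mutants 1 to 3, against 7.23, 7.35 and 7.22 in wild types 1 to 3 (difference 0.34, SE 0.10). Elk4 differed by 0.33 (SE 0.11). The genotypes did not overlap for 4 of the 18, namely Elk3, Elk4, Etv1 and Fli1, against 5.17% of all tested probe sets, and Etv1 and Fli1 are named because their values were seen. Fli1, which acts beside Erg, read 7.45, 7.42 and 7.95 in mutants 1 to 3, against 7.28, 7.24 and 7.12 in wild types 1 to 3. Spi1, the myeloid ETS factor, had the one negative difference, at -0.011.

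Other SOX genes had positive differences for 13 of 15, against 52.4% of all tested probe sets, with a median of 0.11. None passed the adjusted test, and 1 had an unadjusted limma p under 0.05, against 3.53%. That 1 was Sox6, a SOXD factor of erythroid and muscle cells, at 6.70, 7.01 and 6.99 in mutants 1 to 3 against 6.31, 6.73 and 6.47 in wild types 1 to 3 (difference 0.40, SE 0.13). Sox12 differed by 0.15 (SE 0.099). The third SOXF gene, Sox17, is shared by endothelium and endoderm. It read 6.06, 6.39 and 7.06 in mutants 1 to 3 and 6.02, 6.82 and 6.36 in wild types 1 to 3, so that mutant 3 and wild type 2 were its highest arrays. The SOX count depended on wild type 2 and the library labelled mutant 1, as without both 7 of 15 were higher and the median was -0.022.

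KLF and MEF2 relatives were split, with 8 of 17 higher, against 52.4% of all tested probe sets, and a median of -0.010. Of them 0 passed the adjusted test and 0 had an unadjusted limma p under 0.05, against 3.53%. Mef2a and Klf7 had the lowest p, at differences of 0.21 (SE 0.11) and 0.17 (SE 0.11). In the flow pathway of Klf2, 9 of 14 genes had a positive difference (median 0.071), against 52.4% of all tested probe sets. Of them 0 passed the adjusted test. That median was 0.036 without wild type 1, 0.047 without wild type 3 and 0.12 without wild type 2. The 2 with an unadjusted limma p under 0.05, Heg1 and Nos3, were both higher in the mutants, against 2.25% of all tested probe sets, and did not overlap between genotypes, against 5.17%. Heg1, the receptor that holds the cerebral cavernous malformation complex at the membrane, read 7.40, 7.66 and 7.45 in mutants 1 to 3, against 6.98, 7.21 and 7.06 in wild types 1 to 3 (difference 0.42, SE 0.10, limma adjusted p = 0.999). Nos3, the endothelial nitric oxide synthase and a Klf2 target, read 6.60, 6.55 and 6.57 in mutants 1 to 3, against 6.32, 6.16 and 6.30 in wild types 1 to 3 (difference 0.32, SE 0.080, limma adjusted p = 0.999). For Nos3 the library labelled mutant 1 was the highest of the 6 arrays. The kinase genes Map3k3 and Mapk7, which encodes ERK5, differed by 0.20 and 0.079, and the kinase gene Map2k5 by -0.049. Of the complex genes, Krit1 and Ccm2 differed by 0.045 and 0.063, and Pdcd10 by -0.20. Klf4 and Mef2d differed by -0.044 and -0.010. Thbd, thrombomodulin, read 6.36 to 6.72 in the mutants, against 6.13, 8.52 and 6.26 in wild types 1 to 3 (difference -0.44, SE 0.58). It is also in the trophoblast, decidua and parietal endoderm list, for which wild type 2 was the highest array. The part of such tissue in the Thbd value was not tested.

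Reported targets of miR-126 were taken from work in mouse and human cells and were not split by mature strand. Of 11, 8 had a positive difference (median 0.073), against 52.4% of all tested probe sets. None passed limma's adjusted test, and 1 had an unadjusted p under 0.05, against 3.53%. This was Spred1, which read 6.70, 6.98 and 7.11 in mutants 1 to 3, against 6.51, 6.77 and 6.63 in wild types 1 to 3. Its difference was 0.29 (SE 0.13, limma adjusted p = 0.999), and the library labelled mutant 1 read below wild type 2. Pik3r2 differed by 0.0031 (SE 0.080), Crk by -0.025 and Rgs3 by 0.18. Vcam1, an adhesion molecule of endothelium and mesenchyme, read 4.64, 4.95 and 7.40 in mutants 1 to 3, against 4.76, 6.51 and 4.90 in wild types 1 to 3, so 1 array of each genotype stood far above the rest. Without wild type 1 only 4 of the 11 were higher and the median was -0.030.

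**Figure D5:**
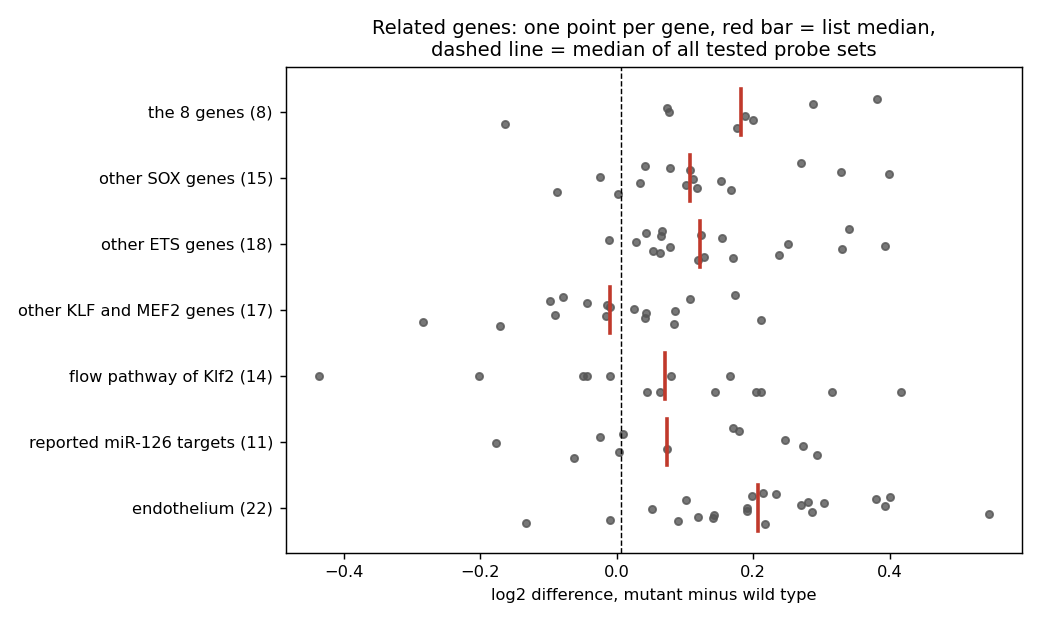
Log2 difference, mutant minus wild type (horizontal axis), of every tested gene in each list, 1 point per gene, with a red bar at the list median and a dashed line at the median of all tested probe sets (0.0063). Medians were 0.18 for the 8 genes, 0.12 for other ETS genes, 0.11 for other SOX genes and -0.010 for KLF and MEF2 relatives, beside 0.21 for endothelial markers.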

How the data were processed

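Total RNA of 6 yolk sacs was hybridised to Affymetrix arrays, 1 array each, and samples were grouped by their titles. The deposited table holds the authors' log2 signals of 35557 probe sets. MAS5 is the one tool in the submitters' processing notes, and how probes were summarised and normalized was not given in the sources used here. How they affect differences between arrays is unknown, and the values were used as deposited. GEO's platform annotation gave 1 symbol to 21789 probe sets, several to 1621 and none to 12147.

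Tested were 16387 probe sets that had a symbol and averaged no less than the 30th percentile of such probe sets, 4.29 on the log2 scale. The genotype difference, mutant minus wild type, was fitted in R 4.3.3 by lmFit and eBayes of limma 3.58.1 without a block, and p-values were adjusted over all of them by the Benjamini-Hochberg method, with 4 residual and 3.47 prior degrees of freedom. Single values were tested by exact two-sided permutation over 20 assignments (720 orders for correlations). Lists took the brightest probe set per gene and were described by counts and medians. The fit was tested on simulated data. The genes, lists and tests were chosen with earlier results of these data known. Named were all 8 genes, Tnrc6a and Mir126a, per list those with the lowest p (2 where none passed, and any gene of the miR-126 and Klf2 lists), and the 3 most similar patterns for each of the 8 but Etv2. Sox17, Spi1, Etv1, Fli1, Lama1 and Actc1 were named after their values were seen. Alternatives were other normalizations, filters, variance models, tests, covariates and sets of arrays.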

Additional observations from a re-analysis of the deposited data

How the results depend on the processing

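Of 143 differences of the 8 genes over 18 alternatives, 140 kept their sign and 0 passed the adjusted test. Leaving out 1 array, Sox7 ran from -0.41 to 0.27, positive without wild type 2. With both wild type 2 and the library labelled mutant 1 left out, Sox7 turned to 0.29 and Etv2 to -0.020. The cause was not tested. Genes among the 8 with an unadjusted p under 0.05 numbered 0 with the methods' t-test, 0 to 2 when 1 array was left out and 2 without that pair of arrays. The count higher in the mutants was 7 or 8 of 8, and 6 of the 7 tested with the 50th percentile filter. All tested probe sets at an unadjusted p under 0.05 numbered 579 in the reported fit, 1086 with array weights, 395 to 1372 with 1 array left out and 1173 without the pair, where 1 probe set, Tnrc6a, passed the adjusted test.

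Without the pair, medians were -0.022 for other SOX genes (7 higher), 0.17 for other ETS genes (14 higher) and 0.35 for endothelium (20 higher). Leaving out 1 array, medians ran from 0.062 to 0.14 for other SOX genes. For other ETS genes they ran from 0.087 to 0.14 (14 to 18 higher). For KLF and MEF2 relatives the range was 0.0060 to 0.062, and for miR-126 targets it was -0.030 to 0.14 (4 to 8 higher). The endothelium median ran from 0.15 without mutant 3 to 0.30 without the library labelled mutant 1, with 17 to 21 genes higher. With the filter at the 50th percentile, which leaves fewer genes, 8 other SOX genes were higher and the miR-126 target median was 0.0086. The replicate block changed no call of the 8 genes, with Erg at an unadjusted p of 0.0269. With the block, 727 of all tested probe sets had an unadjusted p under 0.05, against 579 in the reported fit. Same-numbered arrays deviated together with r = 0.448, 0.146 and -0.107. The same-numbered wild type had the highest r for the library labelled mutant 1 and for mutant 2. Mutant 3 correlated best with wild type 2 (0.236). Whether the numbers pair the arrays was not tested.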
